A study of Mus musculus with 11 samples.

Results

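The transcription factors that drive adipogenesis were examined in epididymal white adipose tissue (eWAT) of mice lacking the mesoderm specific transcript (Mest). The set holds 10 genes of the 15453 with a deposited value, chosen by name for their place in fat cell differentiation: Pparg, Cebpa, Cebpb, Cebpd, Klf15, Ebf1, Ebf2, Zfp423, Rxra and Nr1h3. All 10 were detected in all 11 mice, and 9 of the 10 reached a mean of 50 normalized tags in WT or pKO mice, Cebpb being the exception. The study asked which genes differ in fat tissue when Mest, which is expressed from the father's allele in adult mice, is inactivated. Tags from whole eWAT RNA were counted by SAGE (serial analysis of gene expression) on a SOLiD sequencer in 6 wildtype (WT) mice and 5 mice with paternal inheritance of the inactivated allele (pKO). All were male mice of 16 weeks, C57BL/6 in the labels and C57BL/6J in the study's methods, that had been given a high fat diet from 8 weeks of age, and no group on another diet was profiled. The inactivated allele lacks exon 3 in every tissue of the pKO mice, because it came from a deletion by Ella-cre, a recombinase active in the oocyte and early embryo, and the transgene was bred out afterwards. WT and pKO mice came from the same type of cross, of WT mothers with fathers that carried the inactivated allele. The mice were taken from a larger cohort. The study reported a significantly higher ratio of fat to lean mass in the WT mice it profiled than in the pKO mice. Genotype and fatness thus go together in these groups and cannot be told apart, and no adiposity value was analysed here.

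Fat cells form from mesenchymal progenitors through an ordered cascade of transcription factors. C/EBPβ and C/EBPδ act early, and they lead to PPARγ and C/EBPα, which keep each other expressed and switch on the genes of lipid storage and adipokine secretion. PPARγ binds DNA as a heterodimer with the retinoid X receptor, of which RXRα is the form encoded by Rxra. The early B cell factors and the zinc finger protein ZFP423 act in preadipocytes ahead of PPARγ, KLF15 is induced during differentiation, and LXRα, encoded by Nr1h3, is an oxysterol sensor that dimerizes with RXR. Mature adipocytes go on expressing PPARγ and C/EBPα for as long as they store lipid.

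In SAGE each polyadenylated transcript is counted by a short tag that starts at its last NlaIII site, the sequence CATG. The authors scaled the counts of every library by its own size factor, and the resulting values are called normalized tags below. A transcript gives 1 tag whatever its length, so this scale needs no correction for length when genes are compared, though the number of tags also moved with the position of the site, as given below. For each gene the longest protein-coding transcript in the GENCODE M21 annotation of GRCm38 (mm10) was used. The tags below were read 5′ to 3′ on the transcript's strand, with the NlaIII site in capitals. They are shown for the dominant pair of factors, for the factor whose genotype ranges did not overlap, and for the 2 factors whose sites lie at the extremes.

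Cebpa: CATGctagatgtcgtatgtattatat
Pparg: CATGatctattttatgcatattgttt
Ebf1: CATGaactcattctgcaaatctttca
Cebpb: CATGgcggccggtttcccgttcgccc
Zfp423: CATGcgatcagcaa

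The Cebpa tag lies at chr7:35121877-35121902 on the plus strand, in the 3' UTR of its only exon, 52 bases from the end of the transcript. That of Pparg is at chr6:115490320-115490345 on the plus strand, in the 3' UTR of exon 8, and 3 of its 5 coding transcripts share it, so the counts do not separate these isoforms. The Ebf1 tag is at chr11:45007862-45007887 on the plus strand in the 3' UTR of exon 16, and its 3 coding transcripts each predict a different tag. Which of the predicted tags the authors counted for a gene is not given in the sources used here. No other gene shared a tag with any of the 10 factors.

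The tag of Cebpb sat farther from the end of its transcript than that of most genes. It lies at chr2:167689474-167689499 on the plus strand, within the coding sequence, 945 bases from the end, and 98.4% of 13076 genes matched to the annotation had a shorter distance. Its letters are 73.1% G or C. At the other extreme, the last site of Zfp423, at chr8:87661810-87661823 on the minus strand in the 3' UTR of exon 8, is only 14 bases from the transcript end and leaves a 14-base tag, a distance longer than that of 3.97% of genes. Of the 5 coding transcripts of Zfp423 only 2 have this tag, and 3 different tags are predicted. The other 8 factors had their site 52 to 442 bases from the end, the longest distance among them being that of Klf15.

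Genes with a site over 900 bases from the end had a median of 67.9 normalized tags (262 genes), and those with a site at most 30 bases away had 73.2 (1080 genes), against 158 for the 10605 genes with a site 31 to 500 bases away. The part of site position in the low levels of Cebpb and Zfp423, and so in their place in the order of levels, was not tested.

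**Figure D1:**
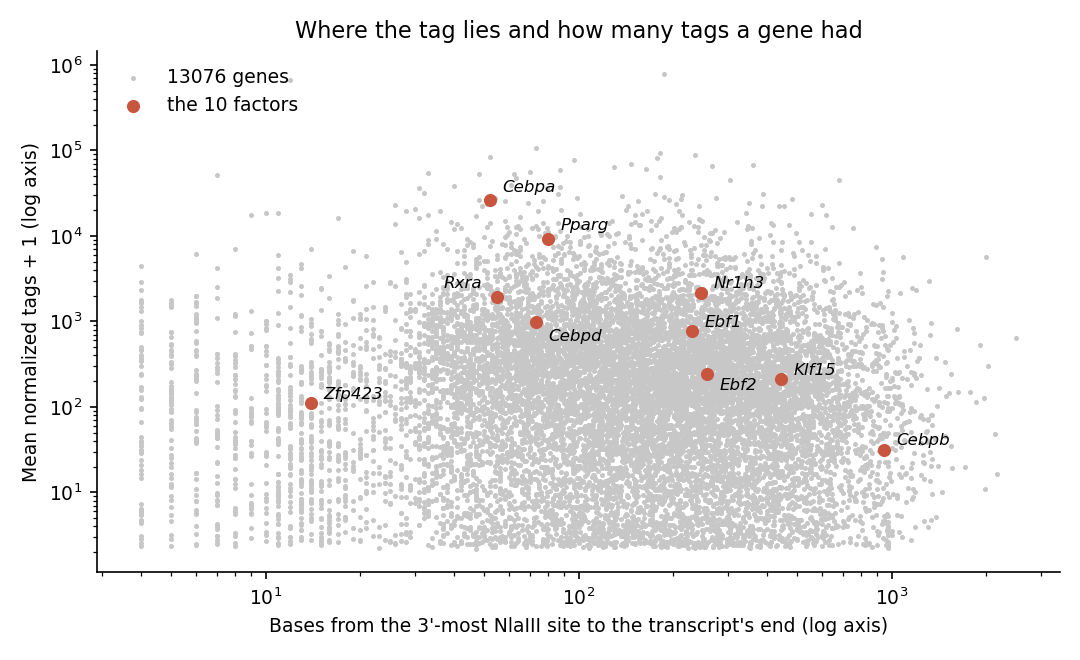
Mean normalized tags over the 11 mice plus 1 (vertical, log axis) against the distance in bases from the last NlaIII site to the transcript's end (horizontal, log axis), for 13076 genes (gray) and the 10 factors (red). Cebpb stands at 945 bases with 30.6 normalized tags, Zfp423 at 14 bases with 109, and the other 8 factors lie between 52 and 442 bases.

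Recovered tags numbered from 9659740 to 14825727 in WT and from 11320342 to 14626803 in pKO libraries. Mest, the targeted gene, was between 20756 and 27897 in WT mice and between 793 and 2275 in the pKO group, so every library matched its label. The tissue label was checked with 8 adipocyte markers, including Adipoq and Fabp4, whose summed level was 691243 to 1092380 in WT and 745487 to 1103800 in pKO mice. Of 5 epididymis markers only Adam7 had a deposited value, and it was at 0 in 6 mice and at most 43.8. Because whole tissue was profiled, fewer cells of a type and less RNA per cell cannot be told apart.

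Cebpa was the most abundant of the 10 factors and one of the most abundant transcripts in the tissue. Its mean over the 11 mice was 26023 normalized tags, rank 43 of 15453 genes. Pparg followed with 9293, rank 177, and the ratio of Cebpa to Pparg was above 1 in 11 of 11 mice, with a mean of 2.81-fold. Both nuclear receptor partners came next, Nr1h3 at 2170 (rank 897) and Rxra at 1947 (rank 1011), and Nr1h3 was the higher of these in 6 of 11 mice. Their order was not separated beyond the spread between mice (log2 ratio 0.15 ± 0.36, SD, n = 11; exact sign-flip test, adjusted p = 0.23).

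Cebpd, at 970, and Ebf1, at 770, formed another pair of neighbours whose order was not separated (exact sign-flip test, adjusted p = 0.11, Cebpd higher in 9 of 11 mice). Ebf2 at 244 and Klf15 at 211 formed the third such pair (adjusted p = 0.34 by the same exact test, Ebf2 higher in 7 of 11 mice). Zfp423 stood at 109 and Cebpb last at 30.6, rank 10720. Of the 9 neighbouring pairs, 6 differed at an adjusted p of 0.05 or less (exact sign-flip test, two-sided, 2048 sign patterns, adjusted over the 9 pairs). In 5 of these the exact p was 0.00098, the smallest that 11 mice allow. The values of Cebpb rest on only 11 to 54 recovered tags per library, against 17670 to 39024 for Cebpa.

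**Figure D2:**
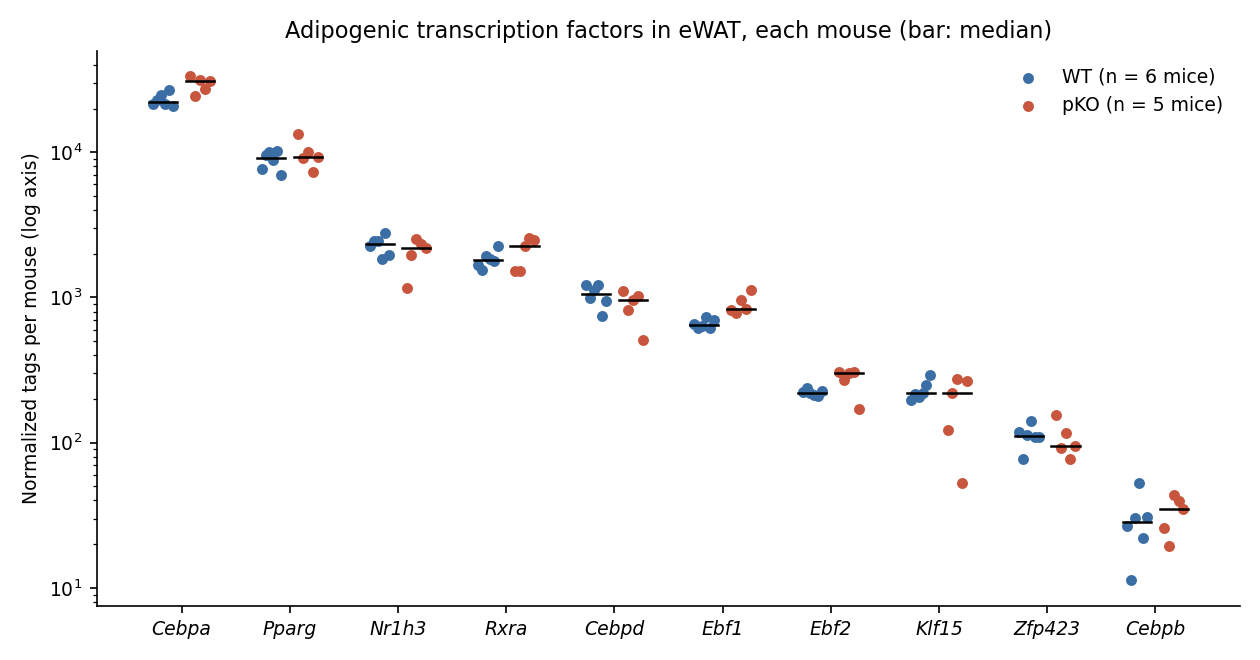
Normalized tags of the 10 factors in each mouse (vertical, log axis), ordered by mean, with WT mice in blue (n = 6), pKO mice in red (n = 5) and a bar at each median. Ebf1 is the factor in which all pKO mice lie above all WT mice, and in Ebf2 4 pKO mice lie above the WT mice and 1 below them.

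Between genotypes, 0 of the 10 factors passed an adjusted p of 0.1 in limma (Benjamini-Hochberg over all genes), where 5 of the 9906 genes whose mean reached 50 in either genotype did, a background of 0.0505%. Without pKO replicate 2 the count was 91 genes, and that of the factors was still 0. At an unadjusted p of 0.05, 2 factors were higher in pKO mice, Ebf1 and Cebpa, and 0 were lower, against a background of 4.85% of genes higher and 5.77% lower. Values of the genotypes did not overlap in 1 of the 10 factors, Ebf1, nor in 1.43% of the 9906 genes. On recovered tags, edgeR's quasi-likelihood test and limma-voom also called 0 factors at an adjusted p of 0.1, among 5 and 6 genes in all. DESeq2 called 1 factor, Ebf1, among 121 genes in all. In all 3 of these fits the count at an unadjusted p of 0.05 was 2. The median log2 difference of the 10 factors, pKO minus WT, was 0.14, with 6 estimates above 0 and 4 below, beside a median of -0.0025 over all genes.

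Ebf1, an early B cell factor that acts upstream of Pparg in preadipocytes and is also expressed in mature fat cells, had the clearest separation. Its values in WT mice ran from 613 to 730 normalized tags, with a median of 648. In pKO mice they were 814, 776, 966, 829 and 1125. Every pKO mouse was above every WT mouse, the lowest being pKO replicate 2 and the highest pKO replicate 5. Of the 9906 genes, 0.717% had the pKO range wholly above that of WT. The mean was 660 ± 46.3 for WT (SD, n = 6) and 902 ± 144 for pKO (SD, n = 5), a log2 difference of 0.44 (standard error 0.12, 95% interval 0.17 to 0.70, adjusted p = 0.36, limma). Over all 462 ways to split the mice, the two-sided exact permutation p was 0.0022, the smallest that 6 against 5 mice allow. In DESeq2 the log2 difference of Ebf1 was 0.45 with an adjusted p of 0.053, and over 21 alternatives its adjusted p ran from 0.053 to 0.61.

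Cebpa, the factor that with PPARγ maintains the mature adipocyte and its insulin sensitivity, was also higher in pKO mice at the unadjusted threshold. WT mice had 20972 to 26742 normalized tags, with a median of 22252. The pKO mice had 33501, 24398, 31540, 27310 and 30901. The genotypes overlapped through pKO replicate 2, whose 24398 fell below 2 WT mice, and the other 4 pKO mice were above all WT mice. The mean was 23100 ± 2256 for WT (SD, n = 6) and 29530 ± 3638 for pKO (SD, n = 5), a ratio of 1.28. The log2 difference was 0.35 (standard error 0.13, 95% interval 0.07 to 0.63, p = 0.017, adjusted p = 0.43, limma), and the exact permutation p was 0.011. Over 21 alternatives the adjusted p of Cebpa lay between 0.16 and 0.67.

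Pparg, the nuclear receptor that fat cell differentiation depends on, had overlapping values in WT and pKO mice. WT mice ranged from 6956 to 10204 with a median of 9160, and the pKO mice had 13375, 9165, 9998, 7272 and 9253. Only pKO replicate 1 lay outside the WT range, above it. The log2 difference was 0.13 (standard error 0.16, adjusted p = 0.83, limma). Its 95% interval, -0.22 to 0.48, corresponds to a change between -13.9% and 39.6%. The estimate was 0.014 without pKO replicate 1 and 0.23 without pKO replicate 4.

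The 2 other C/EBP genes, which act at the start of differentiation, did not pass either threshold. Cebpd had 746 to 1217 normalized tags in WT mice (median 1056) and 1110, 824, 965, 1026 and 512 in pKO mice. The lowest value, 512 in pKO replicate 5, was below all WT mice, and the rest lay inside their range. Its log2 difference was -0.26 (standard error 0.20, 95% interval -0.68 to 0.17, adjusted p = 0.71, limma), and -0.072 without pKO replicate 5. Cebpb had 11.3 to 52.4 in WT mice (median 28.3) and 25.8, 19.5, 43.8, 39.7 and 34.8 in pKO mice, all inside the WT range. At this depth its 95% interval ran from -0.47 to 0.97 on the log2 scale (estimate 0.25, adjusted p = 0.86, limma), the second widest among the factors. The estimate for Cebpb was 0.016 without WT replicate 2 and 0.44 without WT replicate 4.

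Klf15, a Krüppel-like factor that is induced late in adipogenesis and promotes Slc2a4 expression, was uneven among the pKO mice. WT mice had 198 to 291 normalized tags with a median of 219, and the pKO mice had 123, 221, 276, 53.0 and 266. In pKO replicates 1 and 4 the values were below all WT mice, and the other 3 lay inside the WT range. The log2 difference was -0.50 (standard error 0.35, 95% interval -1.26 to 0.25, adjusted p = 0.68, limma). Leaving out pKO replicate 4, the lowest, brought the estimate to -0.11.

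Ebf2, the EBF family member that marks committed preadipocytes and is known for brown fat identity, split the pKO mice the other way. WT mice lay close together, between 210 and 236 normalized tags with a median of 221. The pKO mice had 307, 270, 302, 306 and 171. Thus 4 pKO mice were above all WT mice, and pKO replicate 5 was below all of them. With all mice the log2 difference was 0.26 (exact permutation p = 0.10; standard error 0.16 and adjusted p = 0.62 in limma). Without pKO replicate 5 it was 0.42 (unadjusted p = 0.0031, adjusted p = 0.38, limma). The same mouse had the highest Ebf1 and the lowest Cebpd.

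Zfp423, a zinc finger factor that commits progenitors to the fat cell lineage, had 77.8 to 142 normalized tags in WT mice (median 111) and 155, 91.7, 117, 77.7 and 94.1 in pKO mice. The genotypes overlapped through nearly their whole range (log2 difference -0.08, standard error 0.20, adjusted p = 0.94, limma), and the estimate was -0.22 without pKO replicate 1 and 0.028 without pKO replicate 4. Rxra, the heterodimer partner of PPARγ and LXRα, had 1538 to 2266 in WT mice (median 1809) and 1527, 1525, 2275, 2578 and 2493 in pKO mice. The pKO values 1527 and 1525 were just under the WT minimum of 1538, and 2275 was just above the WT maximum of 2266. Counting error alone gives 2.24% at the mean number of Rxra tags, so these values are not separated from the WT limits. The pKO values 2578 and 2493 were above the WT range. The log2 difference of Rxra was 0.15 (standard error 0.17, adjusted p = 0.81, limma), and it ran from 0.064 without pKO replicate 4 to 0.25 without pKO replicate 2.

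Nr1h3, which encodes the sterol sensor LXRα, had 1840 to 2776 normalized tags in WT mice with a median of 2343. The pKO mice had 1162, 1973, 2535, 2335 and 2178. All lay inside the WT range except pKO replicate 1, which was far below it. The log2 difference was -0.20 (standard error 0.19, adjusted p = 0.77, limma), and it was -0.0081 without that mouse.

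**Figure D3:**
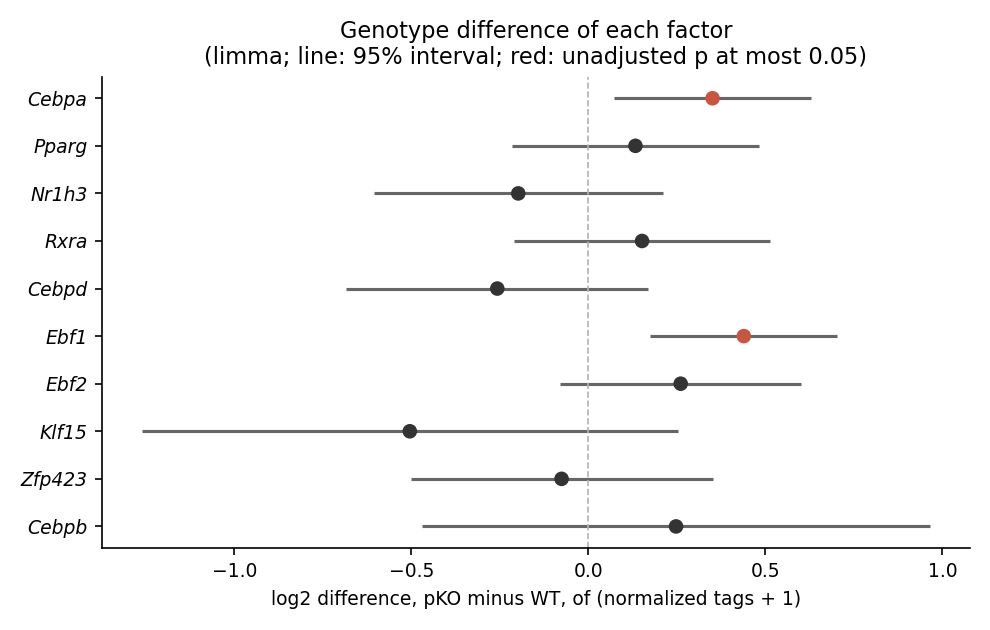
Log2 difference, pKO minus WT, of each factor with its 95% interval from limma (horizontal), ordered by level, with red points where the unadjusted p was 0.05 or less. The intervals of Cebpa and Ebf1 lie above 0, those of the other 8 factors include 0, and that of Klf15 is the widest.

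The factors varied more among pKO than among WT mice, as did most genes. The standard deviation of log2 values was larger in pKO mice for 9 of the 10 factors, Cebpb being the exception, and for 72.6% of the 9906 genes. The median ratio of the deviations, pKO over WT, was 1.83 for the factors and 1.46 for these genes. The ratio was 5.70 for Ebf2 and 4.88 for Klf15, and 98.0% and 96.8% of genes had a smaller one. These ratios turned on single mice: that of Ebf2 was 1.38 without pKO replicate 5, and that of Klf15 was 2.62 without pKO replicate 4 and 7.96 without WT replicate 6. Without pKO replicate 1, 6 of the 10 factors had the larger deviation in pKO mice. For Ebf2 the coefficient of variation in WT mice, 4.43%, was under the 6.30% that counting error alone gives at its mean number of tags, and in pKO mice it was 21.4%. Ebf1 varied by 7.02% in WT and 15.9% in pKO mice, with a counting error of 3.56%.

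**Figure D4:**
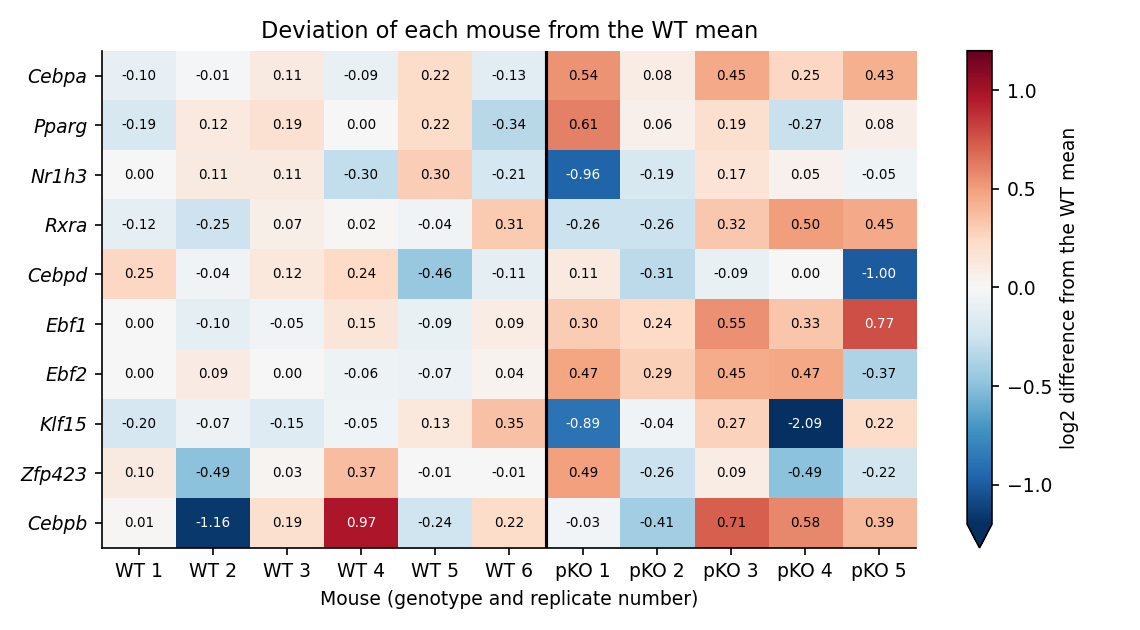
Log2 difference of each mouse (columns) from the WT mean for each factor (rows), with red above and blue below, and a black line between genotypes. The Ebf1 row is above 0 in all 5 pKO mice (0.24 to 0.77), and the largest negative values are Klf15 in pKO 4 (-2.09) and Cebpb in WT 2 (-1.16).

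The factors were then compared with each other across mice after the genotype means were removed. Among the 45 pairs, Pearson's r lay between -0.70 and 0.81, with a median of 0.015 and 25 pairs above 0. By Pearson's r, 0 pairs passed an adjusted p of 0.05 and 4 passed an unadjusted p of 0.05 (exact permutation of mice within genotype, 86400 permutations, adjusted over 45 pairs). By Spearman's rho, adjusted over the same 45 pairs, 1 pair passed an adjusted p of 0.05, Pparg with Cebpa. Spearman's rho was not recomputed under other settings.

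Pparg and Cebpa, the factors that maintain each other's expression, had r = 0.74 (exact permutation p = 0.021, adjusted p = 0.32) and rho = 0.88 (exact permutation p = 0.0011, adjusted p = 0.048) over 11 mice. Without the 2 mice farthest from the median of Pparg, r was 0.69. The largest r, 0.81 between Cebpd and Ebf2 (exact permutation p = 0.026, adjusted p = 0.32; rho 0.65, exact permutation p = 0.045, adjusted p = 0.46), rested on the 2 farthest mice, since it was 0.33 without them. For Cebpb with Rxra r was 0.64 (exact permutation p = 0.019, adjusted p = 0.32; rho 0.75, exact permutation p = 0.018, adjusted p = 0.40), and 0.85 without the 2 farthest mice. For Cebpb with Ebf1 it was 0.59 (exact permutation p = 0.028, adjusted p = 0.32; rho 0.64, exact permutation p = 0.051, adjusted p = 0.46), and 0.58 without them. The lowest r, -0.70, was between Ebf1 and Ebf2 (exact permutation p = 0.12, adjusted p = 0.65), and it was 0.028 without the 2 farthest mice.

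**Figure D5:**
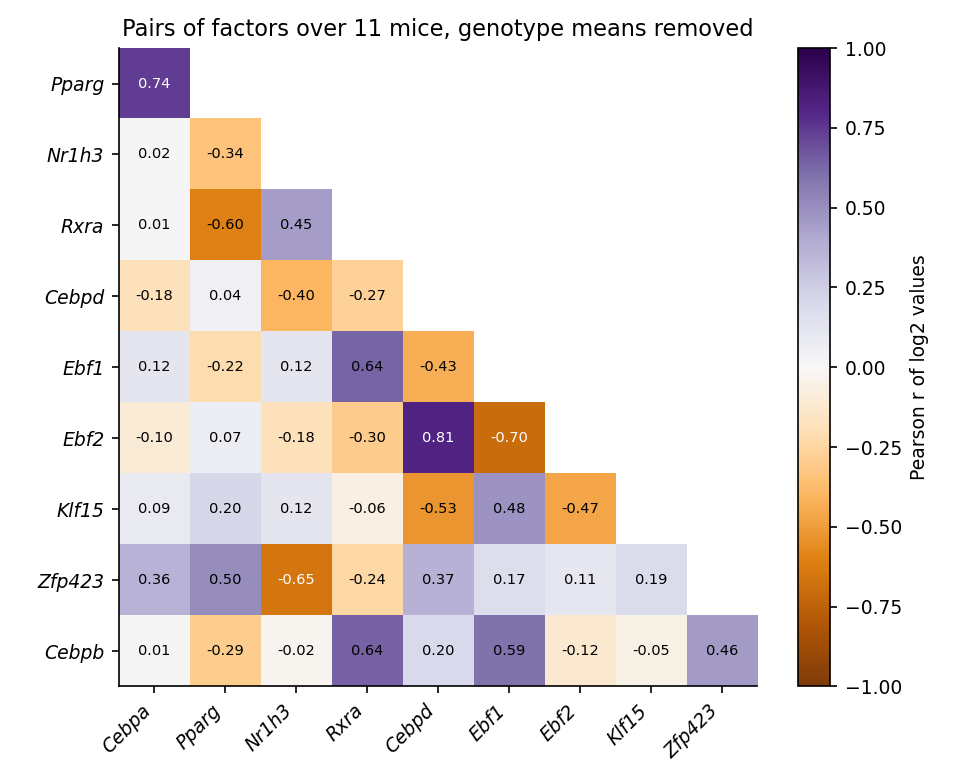
Pearson r of log2 values between each pair of factors over 11 mice with genotype means removed (purple positive, orange negative). Pparg with Cebpa reads 0.74, Cebpd with Ebf2 0.81 and Ebf1 with Ebf2 -0.70.

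For each factor the most alike genes were sought among the 9906 genes, by the Pearson r of log2 values over 11 mice with genotype means removed. Pparg was most like Ppia (0.96) and Ehd2 (0.96), and Cebpa was most like Gcnt2 (0.93) and Dusp4 (0.93). For Ebf1 these genes were Arfgef1 (0.94) and Pdcd4 (0.93), and for Ebf2 they were Taf4a (0.98) and Tspan7 (0.96). Nr1h3 was most like Lipe (0.96), the gene of hormone-sensitive lipase, and Wdr45 (0.94). The nearest genes of the other 5 factors were Phf7 and Prosc for Cebpb, Gatsl2 and Pdia5 for Cebpd, Rpl27a and Cd209d for Klf15, Tmem5 and Serpine2 for Zfp423, and Pigx and Tfpi for Rxra, with r from 0.91 to 0.95. Each of these r is the highest of 9906 on the same 11 libraries and is a description only.

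Genes listed as targets of PPARγ or C/EBPα were counted next. At an unadjusted p of 0.05 in limma, 4.85% of the 9906 genes were higher in pKO mice and 5.77% were lower. The 22 target genes had a median log2 difference of 0.09, and 0 passed an adjusted p of 0.1 in limma. At the unadjusted threshold 3 of them were higher and 0 lower. The 3 were Pnpla2, the adipose triglyceride lipase (log2 difference 0.55, adjusted p = 0.37), Slc2a4, the insulin-responsive glucose transporter GLUT4 (0.49, adjusted p = 0.37), and Pck1, an enzyme of glyceroneogenesis (0.81, adjusted p = 0.48). Pck1 ran from 9312 to 18715 in WT mice and from 8404 to 41343 in pKO mice, past the WT range at both ends, and its exact permutation p was 0.076. In limma it no longer passed the unadjusted threshold without WT replicate 1 or without pKO replicate 1, 3 or 4. Without pKO replicate 2 its log2 difference was 1.19, with a limma adjusted p of 0.048. Slc2a4 ran from 519 to 714 in WT and from 717 to 1225 in pKO mice, so its ranges did not overlap. The same held for 1.43% of the 9906 genes. Of 9 LXR target genes, a list that holds Nr1h3 itself, 0 passed an unadjusted p of 0.05 in either direction in limma, and 7 estimates were below 0 (median -0.19). The most abundant of them were Scd1 (log2 difference 0.25, adjusted p = 0.70) and Srebf1 (0.04, adjusted p = 0.95).

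Among the relatives of the 10 factors in the same protein families, 15 of 18 reached the mean of 50 needed to be counted. Of these, 0 passed an unadjusted p of 0.05 in limma, and the median log2 difference of all 18 was 0.04. The 2 most abundant were Cebpg (0.26, adjusted p = 0.55) and Ddit3 (-0.25, adjusted p = 0.84). Of 19 other regulators of adipogenesis, 17 of which reached this mean, 2 were higher and 2 lower at an unadjusted p of 0.05. Over the 9906 genes these shares were 4.85% and 5.77%. Nr3c1, the glucocorticoid receptor that acts early with the C/EBP factors, had 2056 to 2608 in WT and 2713 to 3462 in pKO mice, so that its ranges did not overlap (log2 difference 0.34, adjusted p = 0.37, limma). Ranges were likewise apart in 1.43% of the 9906 genes. Arntl, a component of the circadian clock, differed by 0.34 (adjusted p = 0.42) and Egr2, which acts ahead of Cebpb, by -0.65 (adjusted p = 0.43). The other lower gene was Wwtr1, a transcriptional coactivator that represses PPARγ (-0.38, adjusted p = 0.44, limma), named after its value was seen. Of 16 coregulators, 13 of which reached this mean, 1 was higher, Nrip1 (log2 difference 0.48, adjusted p = 0.37), a corepressor of nuclear receptors. With all mice, the lists held no gene at an adjusted p of 0.1 in limma.

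Markers of the other cells of the tissue were set beside the factors, because Ebf1, Ebf2, Zfp423 and Cebpd are also expressed outside mature adipocytes. Of the 9906 genes, 4.85% were higher and 5.77% lower at an unadjusted p of 0.05 in limma, and ranges were apart in 1.43%. A marker was counted as higher or lower only where its mean reached 50 in either genotype. Of 8 macrophage markers, 3 were lower in pKO mice at an unadjusted p of 0.05 in limma. They were Itgam (log2 difference -0.72, adjusted p = 0.37), Itgax (-0.90, adjusted p = 0.44) and Cd14 (-0.45, adjusted p = 0.47). The exact permutation p was 0.0043, 0.054 and 0.028 in turn. All 8 estimates were below 0, and the summed level was 3542 to 5117 in WT and 3102 to 4213 in pKO mice. Of 5 mesothelial markers, 2 were higher, Krt19 (0.73, adjusted p = 0.25, limma) and Msln (0.57, adjusted p = 0.52, limma). Msln ran from 98.1 to 151 in WT and from 90.1 to 324.5 in pKO mice, with an exact permutation p of 0.065. The summed mesothelial level was 692 to 958 in WT and 789 to 1598 in pKO mice. Of 9 progenitor markers, 1 was higher, Dpp4, with a log2 difference of 0.53 (adjusted p = 0.37, limma; WT 593 to 1020, pKO 1058 to 1454, ranges apart). The summed progenitor level was 14234 to 18299 in WT and 13448 to 24355 in pKO mice. Of the progenitor estimates 3 were below 0, down to -0.58, and the median was 0.08. Of 5 endothelial markers, 1 was higher, Kdr (0.44, adjusted p = 0.44, limma), while 2 estimates were below 0, down to -0.39, and the median was 0.017. Of 7 lymphocyte markers only 1 reached the mean of 50 needed to be counted, and 0 passed an unadjusted p of 0.05 in limma. The most abundant were Cd79a (0.09) and Cd3e (0.57). Of 8 adipocyte markers, 1 was higher, Pnpla2, which is also counted above, and 2 estimates were below 0, down to -0.49 (median 0.13). All 8 are also among the 22 target genes counted above.

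The 10 factors were also set against the summed markers of 5 cell types over the 11 mice, a comparison chosen after the data were seen. Each sum adds normalized tags, so the most abundant markers of a list weigh most in it. With genotype means removed, 0 of the 50 pairs passed an adjusted p of 0.05 by either coefficient. An unadjusted p of 0.05 was passed by 5 pairs with Pearson's r and by 5 with Spearman's rho (exact permutation within genotype). Pparg and the adipocyte markers had r = 0.67 (exact permutation p = 0.028, adjusted p = 0.41; rho = 0.68, exact permutation p = 0.032, adjusted p = 0.40; r = 0.55 without the 2 farthest mice). These markers are all among the target genes counted above, so adipocyte content and target expression cannot be told apart in their sum. Against the macrophage markers Pparg had r = -0.68 (exact permutation p = 0.025, adjusted p = 0.41; rho = -0.73, exact permutation p = 0.018, adjusted p = 0.40; r = -0.65 without the 2 farthest mice). Cebpd had r = 0.77 with the progenitor markers (exact permutation p = 0.029, adjusted p = 0.41; rho = 0.83, exact permutation p = 0.0048, adjusted p = 0.24; r = 0.63 without the 2 farthest mice) and r = 0.73 with the mesothelial markers (exact permutation p = 0.040, adjusted p = 0.41; rho = 0.64, exact permutation p = 0.050, adjusted p = 0.41), the latter falling to 0.27 without the 2 farthest mice. Zfp423 had r = 0.70 with the progenitor markers (exact permutation p = 0.041, adjusted p = 0.41; rho = 0.70, exact permutation p = 0.032, adjusted p = 0.40; r = 0.53 without the 2 farthest mice). Rxra passed the unadjusted threshold with the adipocyte markers by rho only (-0.61, exact permutation p = 0.040, adjusted p = 0.40). Its r with them was -0.57 (exact permutation p = 0.062, adjusted p = 0.51), and -0.56 without the 2 farthest mice. Neither Cebpa nor Ebf1 was in a pair past the unadjusted threshold. Cebpa came closest with the macrophage markers (r = -0.57, exact permutation p = 0.077, adjusted p = 0.51). Ebf1 had r = -0.45 with the adipocyte markers (exact permutation p = 0.15, adjusted p = 0.52) and r = 0.46 with the macrophage markers (exact permutation p = 0.16, adjusted p = 0.52). The part of these cell types in the genotype differences of Ebf1 and Cebpa was not tested.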

How the data were processed

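eWAT of 6 WT and 5 pKO mice, grouped by genotype in the labels, was profiled by SOLiD SAGE. The authors mapped tags with modified SOLiD SAGE Analysis Software and normalized the counts, and the submitters' processing notes name mm10 and edgeR 3.2.3. The deposited values are a signal, tag counts divided by a size factor per library. Within a tolerance of 0.01 tags, 100% of the values were whole multiples of 1 tag (0.836 to 1.19), so counts were recovered.

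Log2(value + 1) was tested with limma 3.58.1 (R 4.3.3, eBayes with trend, genotype only) over all 15453 genes with Benjamini-Hochberg adjustment. Such differences understate the change of low genes. Genes were counted where one genotype had a mean of at least 50. Single genes were also tested by two-sided exact permutation (scripts in Python 3.11.15). Limma and this permutation test were checked on simulated data with equal spread in both genotypes. That check does not cover the larger spread among pKO mice. Alternatives were other scalings, edgeR 4.0.16, DESeq2 1.42.0, limma-voom, pseudocounts 0.5 and 10, filters, a replicate block and leaving out each mouse. The libraries differed beyond counting noise (smallest chi-square per degree of freedom 15.8). The labels do not give batches.

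The text names the 10 factors, from each other list up to 3 genes with the smallest unadjusted p of 0.05 or less (otherwise the 2 most abundant), the 2 most alike genes of each factor, and Mest. Outside this rule, Wwtr1 was named to complete a count, and Adipoq and Fabp4 as examples of adipocyte markers. Leaving out mice from the measure of spread was added after the data were seen. The factors and lists were chosen with earlier results of these data known. Tag positions come from GENCODE M21, in which 13081 of the 15453 genes were matched by symbol, 5 of them without an NlaIII site.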

Additional observations from a re-analysis of the deposited data

Results flagged for a closer look

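Among 90 sets of values tested (10 factors, the named genes, list sums and library totals in each genotype), 6 held 1 mouse far from the rest of its genotype, where chance gives 4.5. A factor was among them: Ebf2 in pKO replicate 5 was 171 normalized tags against 270 to 307 in the other pKO mice. Others were in pKO replicate 1: Nr3c1 at 3462 against 2713 to 2820, the summed other adipogenic regulators at 20893 against 14642 to 16429, and Adam7, an epididymis marker, at 43.8 against 0 to 9.16. The summed epididymis markers of that mouse are the same 43.8, since Adam7 is the only one with a value. The last was Msln in WT replicate 3, at 151 against 98.1 to 118.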

How the results depend on the processing

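Each factor's difference was recomputed under 21 alternatives. Ebf1 was higher in pKO mice in all 21, at an unadjusted p of 0.05 or less in each, and Cebpa in all 21, at that threshold in 20. With DESeq2, 1 factor (Ebf1) and 121 genes passed an adjusted p of 0.1, against 0 and 5, and with at least 10 tags in every library 11 genes did. Of the named list genes, DESeq2 called Pnpla2 (adjusted p = 0.091) and Krt19 (0.018), and limma without pKO replicate 2 called Pck1 (0.048) and Krt19 (0.0998). Leaving out each mouse gave 3 to 91 genes, 91 without pKO replicate 2, 12 without WT replicate 5 and 3 without WT replicates 1, 2, 3, 4 or 6 or pKO replicate 1, and 0 factors each time; the cause was not tested. At an unadjusted p of 0.05, 480 genes were higher and 572 lower, but 330 and 726 with total-count scaling, and 2 factors (Ebf1 and Cebpa) were higher and 0 lower under both. Other scalings moved the median of all genes by at most 0.033 (log2). Mice that share a number did not deviate together (mean correlation -0.021, against 0.0039 for different numbers), though so few pairs cannot exclude a weak pairing. With the number as a block, which uses no WT replicate 6, 1 factor (Ebf1) passed an unadjusted p of 0.05. In that fit 1 gene passed an adjusted p of 0.1, and Srebf1 was -0.0053. Estimates near 0 changed sign: over single mice left out, Zfp423 ran from -0.22 to 0.028, Ddit3 from -0.48 to 0.0090, Srebf1 from -0.067 to 0.13, Cd79a from -0.18 to 0.27, Cd3e from -0.031 to 0.82 and Adam7 from -1.12 to 0.37. Adam7 was also 0.43 in edgeR, 0.43 in DESeq2 and 0.022 with a pseudocount of 10. Under 13 alternatives the separated neighbours in the order of levels numbered 6, or 7 without pKO replicate 5, and correlated pairs 0 by Pearson's r. Spearman's rho was not recomputed under them. Few tags lay behind Cebpb, Cd3e and Adam7.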
